A study of Mus musculus with 32 samples.

Results

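The 98 features described here were higher in ribosome-associated RNA of CamK neurons of the mouse cortex than in any of the 7 other neuron populations of the study. They were chosen from the measured values: CPM (the count of a feature divided by the column total and multiplied by 1000000) had to be 1 or more in all 4 CamK cortex libraries, and the CamK cortex mean had to be at least 2 times the mean of each other group. They make up 0.174% of the 56459 features of the table and 0.742% of the 13209 features that had 1 CPM or more in all 4 CamK cortex libraries. The difference between CamK cortex and the other groups is therefore fixed by the choice, and it is given below as a description with no test. Tests are given only for contrasts that hold no CamK cortex library.

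The study sequenced poly(A)-selected, strand-marked libraries of ribosome-associated RNA from genetically defined neuron populations of the forebrain. Its 32 libraries fall into 8 groups of 4: CamK cortex, Scnn cortex, CamK hippocampus, Grik hippocampus, VIP cortex, SST hippocampus, SST cortex and PV cortex. All are labelled wild type, with no age and no treatment given. From knowledge of the study and not from the labels, the RNA was pulled down with a tagged ribosomal protein that Cre recombinase switches on in the cells named, so a profile covers every cell in which the driver has been active, whatever its subtype. Nothing in the labels says that the replicates came from separate animals, so that p-values measure the spread between these libraries, which may in part be technical. Because each library is a bulk sample, fewer cells of a type and less RNA per cell cannot be told apart.

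As background, the Camk2a driver marks excitatory pyramidal neurons, which send long-range glutamatergic output from most cortical layers and from the hippocampal fields. Scnn1a marks a narrower excitatory population enriched in layer 4 of the cortex, and Grik4 marks excitatory cells of hippocampal area CA3. Parvalbumin (PV), somatostatin (SST) and vasoactive intestinal peptide (VIP) mark classes of inhibitory interneurons that release GABA. RNA on ribosomes is commonly read as the part of the transcriptome engaged with the translation machinery, without being a direct measure of protein made. The deposited identifiers begin with GSMG and 0 of them matched the reference tables, so that no member has a gene name, a role or a sequence here, and the populations could not be checked on marker genes.

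The members covered a wide range of abundance in CamK cortex, with a median of 5.15 CPM and group means between 1.2 and 442.5 CPM. The median of all 13209 features at 1 CPM or more in these libraries was 21.9 CPM, so the members sat towards the low end. Of the 98, 48 had a mean under 5 CPM, 31 lay between 5 and 50 CPM and 19 were at 50 CPM or more. Together they held 2773 ± 134 CPM in CamK cortex (SD, n = 4), and the 5 most abundant accounted for 43.5% of that sum. Their deposited lengths had a median of 1661 bases and ran from 140 to 8555 bases, against a median of 1442 bases for the 13209 features. Per 1000 bases of length the members had a median level of 3.84 CPM, against 15.4 CPM for the 13209.

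The ratio of the CamK cortex mean to the highest other group had a median of 2.81 over the members, with quartiles of 2.24 and 3.85. It was under 2.5 for 40 members, at least 4 for 21 and at least 8 for 4. The members just inside the limit had ratios of 2.006, 2.009 and 2.009, and the features just outside had 1.991, 1.989 and 1.979. In all, 26 features lay between 1.8 and 2. The limit therefore cuts through a continuous run of features. For 92 members the lowest CamK cortex library was above the highest of the 28 other libraries, a pattern shown by 346 of the 13209 features (2.62%), and the other 6 overlapped with at least 1 library elsewhere.

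**Figure D1:**
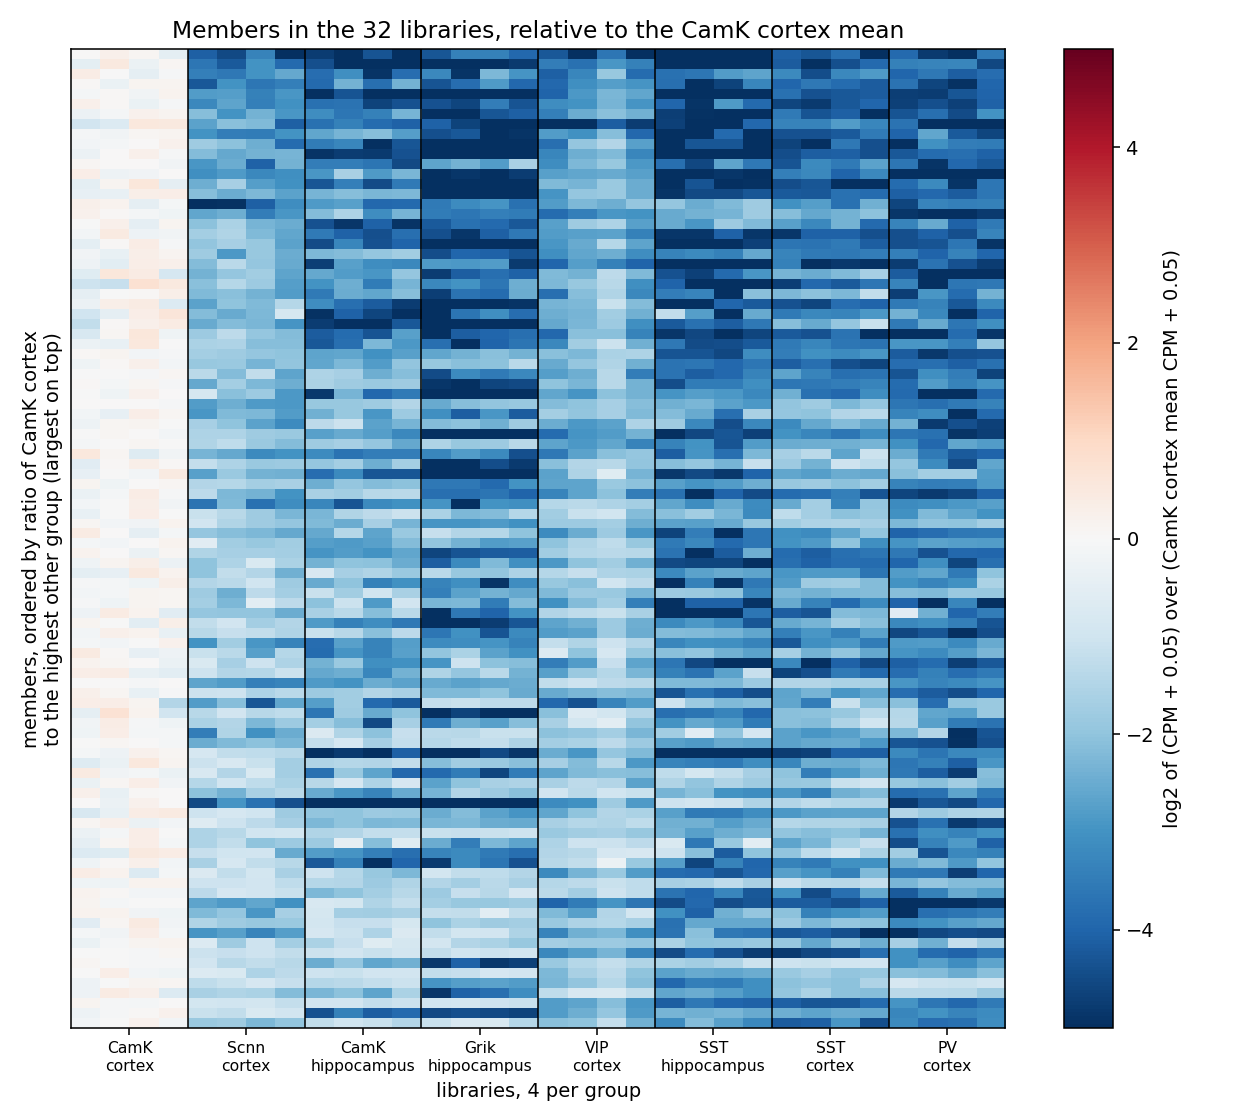
Each row is a member and each column a library, coloured by log2 of the ratio of its CPM to the member's CamK cortex mean (0.05 CPM was added to both), with the 8 groups separated by lines. The CamK cortex columns stay near 0, while Grik hippocampus, SST hippocampus and PV cortex hold the darkest blocks.

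The largest ratios belonged to features that were nearly limited to CamK cortex. GSMG0002142 had 2.4, 2.85, 2.52 and 1.69 CPM in the CamK cortex libraries, while no other library passed 0.191 CPM. It had 0 counts in all 4 SST hippocampus libraries, where 3 counts over the group would correspond to 0.00578 CPM. Its CamK cortex mean was 17.3 times that of the next group, Grik hippocampus. GSMG0029009 had 1.64, 3.28, 1.89 and 2.51 CPM in CamK cortex and likewise 0 counts in SST hippocampus. Its highest library elsewhere was VIP cortex replicate 3 at 0.27 CPM, and its ratio to VIP cortex was 12.5. Both are of low abundance, and about 1000 counts over the 4 CamK cortex libraries stand behind each of them (1004 and 989).

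The most abundant member, GSMG0022423, singled out after its values were seen, had a different profile. It had 481.8, 416.6, 432.9 and 438.8 CPM in CamK cortex, 253.8, 238.4, 157.3 and 194.5 CPM in CamK hippocampus and 134.7, 119.7, 120.6 and 129.98 CPM in Grik hippocampus. The Scnn cortex libraries were at 54.0 to 72.4 CPM, the VIP cortex libraries at 27.5 to 57.1 CPM, and all PV and SST libraries at 10.2 to 29.0 CPM. The CamK and Grik libraries were thus above all others without overlap, and the member entered the set with a ratio of 2.1 to CamK hippocampus.

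Outside CamK cortex the members were not evenly low. In the median member, the group mean was 27.1% of the CamK cortex mean in Scnn cortex, 20.8% in VIP cortex, 18.0% in CamK hippocampus, 12.02% in SST cortex, 8.94% in Grik hippocampus, 8.72% in SST hippocampus and 7.80% in PV cortex. The same median over the 13209 features lay between 95.8% and 105.1% in every group. The next highest group was Scnn cortex for 35 members, VIP cortex for 25, CamK hippocampus for 20, Grik hippocampus for 8, SST cortex for 6, SST hippocampus for 3 and PV cortex for 1. The lowest group was PV cortex for 28 members and Grik hippocampus and SST hippocampus for 27 each. PV cortex was at least 8-fold below CamK cortex in 73 members, whereas Scnn cortex was so in 12 and VIP cortex in 11. These levels are scaled by the column total alone. The TMM factors that set the scale in the tests were 1.14 to 1.24 in VIP cortex. They were 0.916 to 0.959 in CamK cortex and 0.921 to 0.988 in CamK hippocampus. TMM scaling would therefore lower VIP cortex relative to both, and the order of the groups on that scale was not examined.

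Summed over the members, the libraries held 683.4 to 901.6 CPM in Scnn cortex, 680.0 to 857.0 CPM in CamK hippocampus and 548.3 to 837.4 CPM in VIP cortex, and these ranges overlapped. Grik hippocampus at 509.2 to 529.8 CPM and SST cortex at 459.5 to 531.4 CPM overlapped with each other. PV cortex (302.5 to 442.9 CPM) and SST hippocampus (268.8 to 391.4 CPM) held the lowest sums and overlapped too. The top of the VIP range was replicate 3, with 61 members at 1 CPM or more, while the other VIP libraries had 48 to 50. The top of the PV range was replicate 1, and the remaining PV libraries lay between 302.5 and 341.3 CPM. The CamK cortex libraries held 2618, 2710, 2912 and 2852 CPM, far from every other group. These sums, too, are scaled by the column total alone. With TMM factors of 0.899 to 0.930 in Grik hippocampus and 1.14 to 1.24 in VIP cortex, TMM scaling would raise the former and lower the latter. The overlap of the sums on that scale was not examined.

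**Figure D2:**
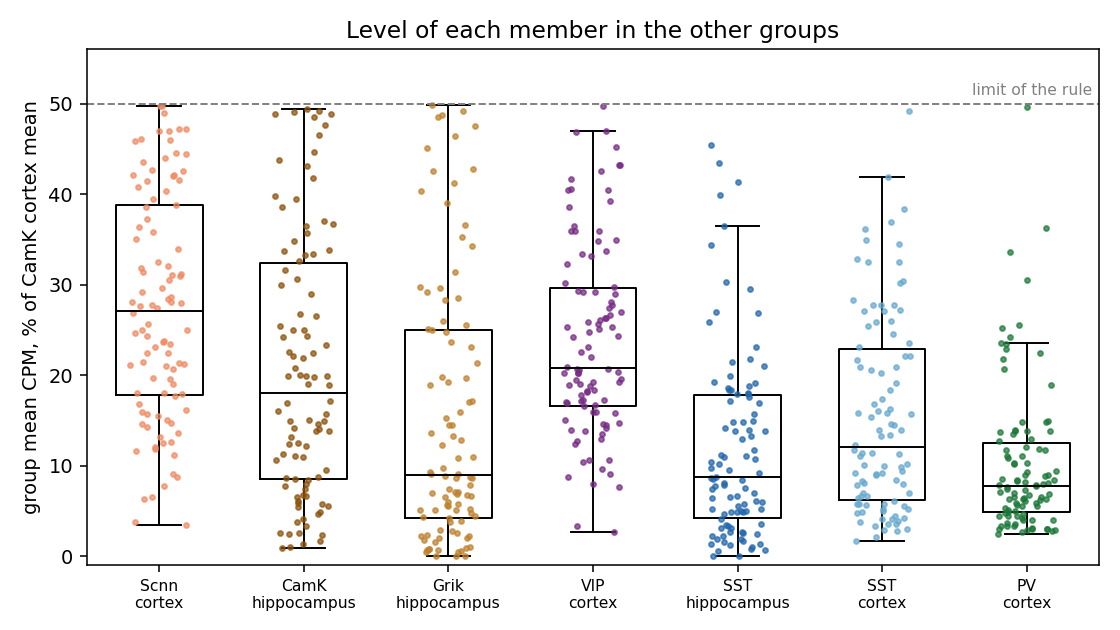
Points show the 98 members, with the group mean CPM as a percentage of the CamK cortex mean for each of the 7 other groups; boxes give quartiles and median. The dashed line at 50 marks the limit set by the rule, and the medians run from 27.1% in Scnn cortex to 7.80% in PV cortex.

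Within CamK cortex the coefficient of variation between libraries had a median of 0.181 over the members and 0.0929 over the 13209 features. The members were also less abundant (median 5.15 against 21.9 CPM), and the 2 sets were not compared at matched abundance. Replicate 3 was the highest CamK cortex library for 37 members and replicate 1 the lowest for 35. The same counts over the 13209 features were not made. In 8 members the coefficient of variation was over 0.4. Of these, 3 abundant ones, named after their values were seen, shared a pattern. GSMG0003109 had 41.8, 49.4, 116.1 and 114.1 CPM in CamK cortex replicates 1 to 4. GSMG0019959 had 11.5, 10.4, 39.3 and 32.6 CPM, and GSMG0008335 had 128.8, 136.4, 289.4 and 266.2 CPM. In each, the mean of replicates 3 and 4 was more than 2-fold above that of replicates 1 and 2, as in 4 of the 98 members, while 0 members showed the opposite at that size. Whatever the size, replicates 3 and 4 were both above replicates 1 and 2 in 31 members and both below them in 21. The share of the 13209 features with such patterns was not computed. In Scnn cortex replicate 4 was low in each of the 3 abundant members. GSMG0003109 had 4.74 CPM there, against 12.7 to 19.0 CPM in the other Scnn libraries. GSMG0019959 had 3.39 against 5.42 to 8.60 CPM, and GSMG0008335 had 35.7 against 91.6 to 106.1 CPM. The remaining member of the 4, GSMG0002816, also named after its values were seen, had 1.32, 1.94, 3.40 and 4.09 CPM in CamK cortex. It went the other way in Scnn cortex, where replicate 4 was the highest Scnn library at 1.44 CPM, against 0.429 to 0.562 CPM.

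Each CamK cortex library was also left out of the choice in turn and set against the 7 other group means. Those means still served to choose the features, so that the shares below are a description and no independent test. Without replicate 1 the rule chose 109 features, and in the left-out library 72 of them (66.1%) were at least 2-fold above every other group mean. Without replicate 2 these numbers were 78 of 99 (78.8%), without replicate 3 they were 73 of 87 (83.9%) and without replicate 4 they were 73 of 97 (75.3%). The left-out library was above the highest other group mean for 104 of 109, 98 of 99, 87 of 87 and 96 of 97 features. Of the 98 members, 85 to 94 were chosen again. The median ratio in the left-out library was 2.41, 2.78, 3.36 and 2.81 for replicates 1 to 4. In the libraries that picked the features it was 2.69, 2.88, 2.98 and 2.89. The left-out ratio was thus smaller for replicates 1, 2 and 4 and larger for replicate 3. Of all features at 1 CPM or more in the remaining CamK cortex libraries, 0.666% to 0.912% were at least 2-fold above every other group mean in the left-out library.

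The first contrast without CamK cortex set Scnn cortex, the other excitatory cortical population, against the mean of PV and SST cortex. Of the 98 members 62 (63.3%) were higher in Scnn cortex and 0 were lower, where 17.9% of the 24555 features tested were higher and 10.4% lower. The median log2 fold change was 1.36 over the members and 0.12 over all features tested. GSMG0043843 had 30.02, 28.95, 31.003 and 27.2 CPM in Scnn cortex, against 7.81, 4.44, 3.94 and 5.17 CPM in PV cortex and 2.27, 2.64, 2.93 and 4.62 CPM in SST cortex. The Scnn libraries were all above the interneuron libraries, with a log2 fold change of 2.85 (SE 0.17, edgeR quasi-likelihood test with Benjamini-Hochberg adjustment, adjusted p = 2.75e-15). GSMG0006316 had 3.04, 2.30, 2.29 and 2.11 CPM in Scnn cortex, against 0.389 to 0.570 CPM in PV cortex and 0.155 to 0.288 CPM in SST cortex. Here too the groups did not overlap (edgeR log2 fold change 2.84, SE 0.33, adjusted p = 7.35e-09).

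Calls in all 5 contrasts needed a 2-fold difference and an adjusted p below 0.05 in 1 model fitted to all 32 libraries. Beside the edgeR count of 0 lower members, 1 was lower by 2-fold with an unadjusted p below 0.05, and 3 were lower at that p whatever the fold. The share of all features at an unadjusted p was not computed. DESeq2 called 1 lower (10.3% of all features). At an adjusted p alone edgeR had 2 lower (26.3% of all features). With the replicate number as a block 59 members were higher and 1 lower, against 17.1% and 10.2% of all features. The number of lower members was also 1 when PV cortex replicate 1, Scnn cortex replicate 2, Scnn cortex replicate 4 or SST cortex replicate 3 was left out. Of all features, 9.23% to 10% were then lower. All 98 members passed the filter on low counts over the 32 libraries, which their CamK cortex levels alone allowed. Filtered and fitted on the compared groups only, all 98 were still tested in this contrast and in that of VIP cortex, but fewer in the other 3, where the counts are given beside the result.

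The corresponding contrast in the hippocampus set CamK neurons against SST interneurons and shares no library with the one in Scnn cortex. Here 48 members (49.0%) were higher in CamK hippocampus and 8 (8.16%) were lower, against a background of 10.7% higher and 16.1% lower. Filtered and fitted on these 2 groups alone, 91 members were tested, 40 were higher and 6 lower, against 11.9% and 15.3% of all features. The median log2 fold change was 1.21 over the members and -0.09 over all features tested. GSMG0043843 again stood out, with 29.9, 32.5, 29.4 and 33.6 CPM in CamK hippocampus, against 2.82, 4.36, 3.04 and 2.34 CPM in SST hippocampus (edgeR log2 fold change 3.40, SE 0.22, adjusted p = 4.02e-14). It was also at 27.2 to 31.9 CPM in Grik hippocampus, so that the 3 excitatory groups outside CamK cortex overlapped, while the CamK cortex libraries were at 62.0 to 68.5 CPM. GSMG0040825 had 17.7, 21.1, 12.2 and 21.0 CPM in CamK hippocampus, against 0.547, 1.12, 0.675 and 4.32 CPM in SST hippocampus. Its lowest CamK library was above its highest SST library, though PV cortex replicate 1, at 36.6 CPM, exceeded the lowest CamK cortex library at 36.4 CPM (edgeR log2 fold change 3.51, SE 0.72, adjusted p = 0.0002). Without SST hippocampus replicate 5 the log2 fold change was 4.59.

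A few members ran the other way. GSMG0000011 had 0.0406, 0.0897, 0.0543 and 0.0184 CPM in CamK hippocampus, against 2.38, 2.58, 2.30 and 1.73 CPM in SST hippocampus (edgeR log2 fold change -5.41, SE 0.47, adjusted p = 1.13e-11). It was also present in SST cortex, at 1.75, 2.001, 1.81 and 1.75 CPM, and at 5.07, 4.06, 5.72 and 4.95 CPM in CamK cortex. No library of the other 5 groups passed the 1.41 CPM of VIP cortex replicate 3. GSMG0005130 had 4.01, 7.91, 4.66 and 5.53 CPM in CamK hippocampus, against 16.5, 15.6, 16.9 and 14.2 CPM in SST hippocampus, with no overlap (edgeR log2 fold change -1.44, SE 0.15, adjusted p = 1.38e-09). Without CamK hippocampus replicate 4 the number of lower members was 5, against 14.3% of all features. With the replicate block 49 members were higher and 5 lower, against 10.2% and 14.7% of all features.

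The members higher in both contrasts numbered 39 (39.8%, against 6.003% of all features). They were 62.9% of the 62 higher in Scnn cortex and 81.2% of the 48 higher in CamK hippocampus. Over all features tested, 1474 were higher in both, 33.6% and 56.1% of the lists of 4384 and 2629. Such shares rise with the share called higher in each contrast, which was larger among the members (63.3% and 49.0%, against 17.9% and 10.7%). They therefore cannot show a closer link between the contrasts among the members. The overlap that those rates alone would give was not computed. Another 18 members (18.4%, against 8.19% of all features) were higher in Scnn cortex and not called in the hippocampus, and 9 (9.18%, against 4.38%) were higher in CamK hippocampus and not called in Scnn cortex. The 5 members higher in Scnn cortex and lower in CamK hippocampus were 5.10%, near the 3.66% of all features. Another 3 were lower in CamK hippocampus and not called in Scnn cortex (3.06%, against 7.005%), and for 24 (24.5%, against 60.4%) neither contrast gave a call. Across the 98 members the log2 fold changes had a Pearson correlation of 0.43 and a Spearman correlation of 0.44. Across all 24555 features tested these were 0.28 and 0.25. All 98 members entered these counts and correlations, though only 91 passed the low-count filter on CamK and SST hippocampus alone. The counts and correlations were not repeated on those 91. Features are not independent replicates, and SST neurons, though from other libraries, are on the lower side of both contrasts.

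**Figure D3:**
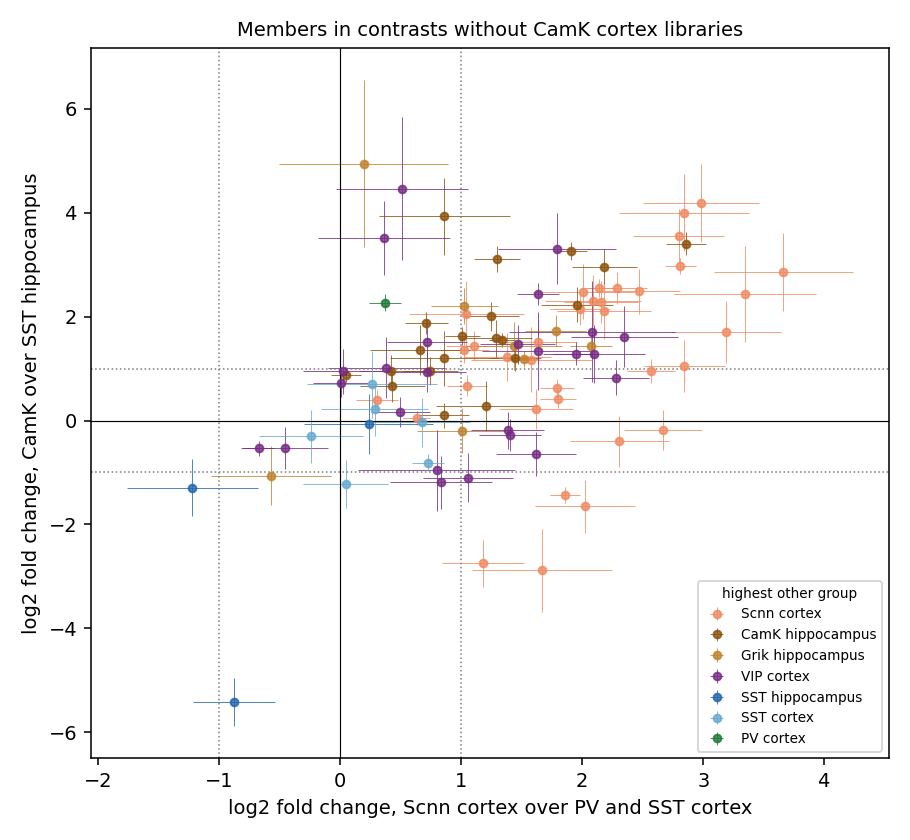
Each point is a member, with the log2 fold change of Scnn cortex over PV and SST cortex on the x axis and that of CamK over SST hippocampus on the y axis; bars are standard errors and colours give the highest group other than CamK cortex. Of the 98 members 75 lie above 0 on both axes, and GSMG0000011 lies lowest at -5.41.

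Within hippocampal excitatory neurons, CamK was set against Grik. CamK hippocampus shares its libraries with the previous contrast. In it 32 members (32.7%) were higher and 4 (4.08%) lower, where 6.4% of all features tested were higher and 6.99% lower, and the median log2 fold change was 0.47 over the members and -0.02 over all features. Filtered and fitted on these 2 groups alone, 88 members were tested, 26 were higher and 3 lower, against 6.96% and 7.33% of all features. GSMG0020175 had 3.91, 4.57, 4.02 and 4.14 CPM in CamK hippocampus, against 0.502, 0.242, 0.373 and 0.325 CPM in Grik hippocampus (edgeR log2 fold change 3.45, SE 0.24, adjusted p = 2.31e-13). GSMG0029276 had 1.84, 1.59, 1.52 and 1.60 CPM in CamK hippocampus, against 0.147, 0.0863, 0.189 and 0.201 CPM in Grik hippocampus (edgeR log2 fold change 3.31, SE 0.31, adjusted p = 3.14e-10). In both, every CamK library was above every Grik library.

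GSMG0043298, the shortest member at 140 bases and the one with the highest level per length in CamK cortex (145.1 CPM per 1000 bases), was lower in CamK than in Grik hippocampus. Its libraries were at 2.97, 6.02, 1.32 and 1.07 CPM in CamK hippocampus and at 8.85, 9.42, 8.24 and 8.09 CPM in Grik hippocampus (edgeR log2 fold change -1.70, SE 0.57, adjusted p = 0.0227). The call was lost without CamK hippocampus replicate 4 (adjusted p = 0.0745) or replicate 5 (adjusted p = 0.0783), and without replicate 3 the log2 fold change was -2.38. In CamK cortex it had 25.7, 25.9, 22.3 and 7.35 CPM, so that replicate 4 lay below the highest library elsewhere, SST hippocampus replicate 1 at 9.90 CPM. The number of lower members was 2 without CamK hippocampus replicate 4 or Grik hippocampus replicate 4 (5.78% and 6.63% of all features). With the replicate block 32 members were higher and 4 lower, against 5.75% and 6.32% of all features, and the adjusted p of GSMG0043298 was 0.0783.

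Region was compared within SST interneurons, which the rule only limits from above in both regions. In SST hippocampus 23 members (23.5%) were lower than in SST cortex and 4 (4.08%) were higher, where 3.54% of all features tested were lower and 3.92% higher. Filtered and fitted on these 2 groups alone, 88 members were tested, 17 were lower and 4 higher, against 4.07% and 4.25% of all features. The median log2 fold change was -0.61 over the members and 0.02 over all features. GSMG0028141 had 0.305, 0.447, 0.323 and 0.503 CPM in SST hippocampus, which were all below the 1.47, 1.11, 1.68 and 2.97 CPM in SST cortex (edgeR log2 fold change -2.20, SE 0.43, adjusted p = 0.000262). GSMG0051003 had 0.298, 0.328, 0.430 and 0.261 CPM in SST hippocampus, against 1.08, 1.08, 1.22 and 1.83 CPM in SST cortex, again with no overlap (edgeR log2 fold change -1.99, SE 0.42, adjusted p = 0.000559). None of the 4 higher members passed the rule for named features, since 3 had means under 1 CPM in SST hippocampus and the libraries of the other overlapped. The number of higher members was 2 without SST cortex replicate 2 or 4 (2.99% and 3.51% of all features). It was 1 without SST hippocampus replicate 2 (3.31% of all features). SST hippocampus titles carry a W and SST cortex titles do not, so that the regions and the kinds of title cannot be told apart. At an adjusted p alone 36 members were lower, against 11.9% of all features.

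Among the interneurons of the cortex, VIP was set against the mean of PV and SST, whose libraries also serve the Scnn contrast. In VIP cortex 42 members (42.9%) were higher and 1 (1.02%) was lower. The background was high in this contrast, with 22.6% of all features tested higher and 6.14% lower, and the median log2 fold change was 0.90 over the members and 0.15 over all features. GSMG0035117 had 49.2, 60.4, 64.2 and 62.1 CPM in VIP cortex, against 13.6, 7.89, 10.7 and 10.6 CPM in PV cortex and 11.2, 9.44, 11.96 and 13.2 CPM in SST cortex (edgeR log2 fold change 2.17, SE 0.28, adjusted p = 2.35e-07). It was also at 51.2 to 57.9 CPM in Scnn cortex, while its CamK cortex libraries were at 184.5, 165.9, 132.7 and 173.3 CPM. GSMG0002044 had 2.74, 4.12, 5.63 and 2.96 CPM in VIP cortex, against 0.906 to 1.17 CPM in PV cortex and 0.605 to 1.13 CPM in SST cortex (edgeR log2 fold change 1.78, SE 0.18, adjusted p = 3.17e-10).

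Without VIP cortex replicate 3, the library with the highest member sum, 31 members were higher, against 19.6% of all features. The lower member was GSMG0043298, described above. It had 1.31, 0.934, 1.996 and 2.88 CPM in VIP cortex, against 4.67, 1.42, 5.13 and 5.63 CPM in PV cortex and 3.30, 1.78, 9.26 and 4.79 CPM in SST cortex, so that the libraries overlapped (edgeR log2 fold change -1.57, SE 0.53, adjusted p = 0.013). This call was lost without VIP cortex replicate 1 or 2, where 0 members were lower (4.8% and 4.98% of all features). Without PV cortex replicate 2 there were 2 lower members (6.99% of all features). At an adjusted p alone 2 members were lower, against 26.4% of all features. VIP titles carry the W, so that population and kind of title cannot be told apart here.

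**Figure D4:**
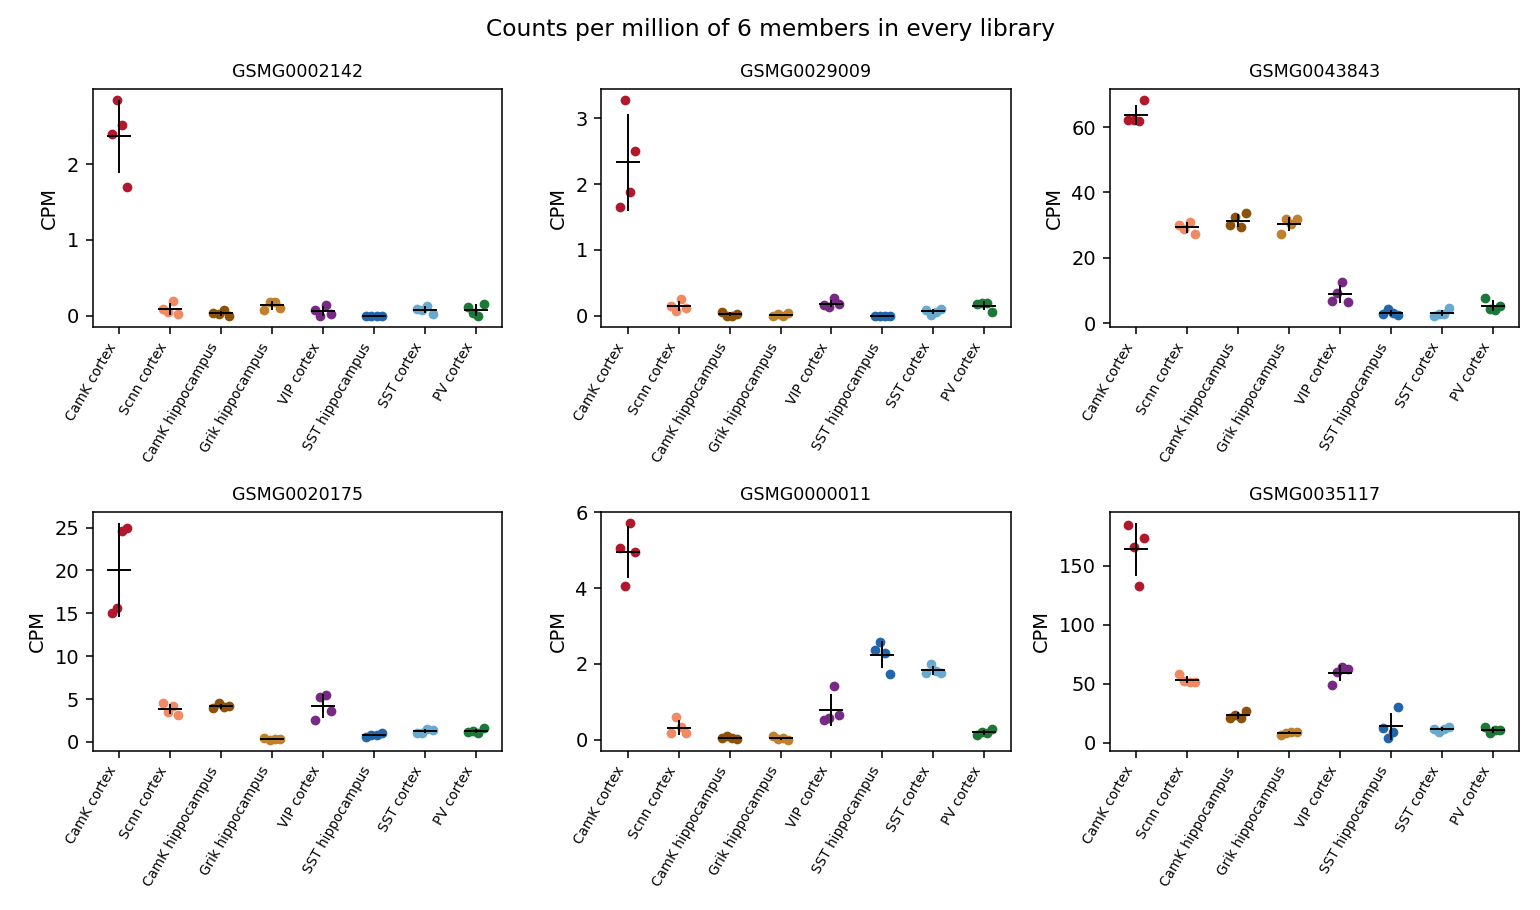
Dots are the CPM of the 4 libraries of each group for 6 members, and the black marks are the mean ± SD. GSMG0002142 and GSMG0029009 are near 0 outside CamK cortex, GSMG0043843 holds a second level near 30 CPM in Scnn cortex, CamK hippocampus and Grik hippocampus, and GSMG0000011 is also present in both SST groups.

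Taking the 5 contrasts side by side, 14 members (14.3%) were called in none, 13 (13.3%) in 1 and 22 (22.4%) in 2. Another 32 (32.7%) were called in 3, 14 (14.3%) in 4 and 3 (3.06%) in all 5. Of all features tested, 49% were called in none, 19.8% in 1, 15.8% in 2, 9.59% in 3, 4.64% in 4 and 1.14% in all 5. The contrasts share groups. All members entered this tally, because their CamK cortex levels alone let them pass the filter over the 32 libraries. On the compared groups alone, that filter kept 88 members for CamK over Grik hippocampus and 91 for CamK over SST hippocampus. It kept 88 for SST hippocampus over cortex. The tally was not repeated on the members kept, so its 2 sides are not like for like. CamK cortex belongs to the groups whose titles carry no W. The ratio of its mean to the highest of the other groups without the W (Scnn, PV and SST cortex) had a median of 3.57, and the ratio to the highest of the 4 groups with it had a median of 3.35. It was larger over the groups without the W for 56 members and larger over those with it for 42. The highest of 3 groups was here set against the highest of 4, and the 2 sides hold different populations. These ratios therefore cannot show whether the kind of title matters. The column totals ran from 100158438 to 114153919 counts in 31 libraries, and SST hippocampus replicate 1 had 186505391. GSMG0043055, which is not a member and was noticed in the data, was at 10 CPM or more in 22 libraries and under 1 CPM in the rest. In CamK cortex only replicate 2 was above 1 CPM, at 32.1 CPM, and the part of this difference in the members' spread was not tested.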

How the data were processed

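The table deposited by the authors holds expected counts, which are read numbers for each feature and often fractional (20.1% of the values above 0 are whole within 1e-06). Per the submitters' processing notes, the genome build was GRCm38; these notes also list featureCounts, SAMtools, Picard and FastQC. Aligner, feature annotation and strand setting were not given in the sources used here, so overlapping or near-identical features are uncertain. Another 12 columns match no sample and were left out. Lengths are those deposited, taken as bases.

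CPM in the text divides a deposited count by its column total. For tests, expected counts were rounded. In edgeR 4.0.16 (R 4.3.3), filterByExpr kept 24555 of 56459 features, TMM set the scale, and the quasi-likelihood fit, robust, had a term for each of the 8 groups (24 residual degrees of freedom, common biological coefficient of variation 0.253). Benjamini-Hochberg adjustment ran over all features tested. A standard error is the log2 fold change over the square root of F. The steps were tested on simulated data.

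Named members were the 2 with the largest ratio and, per contrast, at most 2 called members in each direction with the largest log2 fold changes, 1 CPM or more on the higher side and no overlap between libraries. Others are said to be chosen after their values were seen, except GSMG0043298 in the VIP contrast, named as the only lower member there. The members, contrasts and rules were chosen with earlier results of these data known. Alternatives were DESeq2 1.42.0, other scaling, filters and thresholds, fewer groups, a replicate block and leaving out each library.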

Additional observations from a re-analysis of the deposited data

Results flagged for a closer look

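Of 120 groups of 4 libraries examined (the summed CPM of the members and 14 named members, in 8 groups each), 7 (5.83%) held a library whose gap to the nearest other passed the critical share of the group's range in Dixon's test, where chance flags about 1 in 20. The member sum of Scnn cortex was 683.4 CPM in replicate 4 and 867.6 to 901.6 CPM in the others. GSMG0040825 was at 9.49 CPM in the same Scnn library and at 13.6 to 14.2 CPM in the others. In SST hippocampus GSMG0040825 was at 4.32 CPM in replicate 5 and at 0.547 to 1.12 CPM in the others. GSMG0000011 was at 1.41 CPM in VIP cortex replicate 3 and at 0.520 to 0.660 CPM in the others. In PV cortex GSMG0006316 was at 0.389 CPM in replicate 2, with 0.552 to 0.570 CPM in the others, and GSMG0029009 at 0.0511 CPM in replicate 4, with 0.176 to 0.197 CPM in the others. GSMG0043843 was at 68.5 CPM in CamK cortex replicate 4 and at 62.0 to 62.3 CPM in the others, a small difference set by a tight group.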

How the results depend on the processing

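The size of the set follows from its limits. It was 210 features at a fold of 1.5 (median ratio 1.95), 42 at a fold of 3 (4.05) and 43 at a minimum of 5 CPM (2.48), against 98 (2.81). With TMM-normalised CPM it was 118, of which 96 were shared, and it was 87 to 109 (median ratio 2.69 to 2.98) when 1 library was left out. Without the fold threshold, members lower in SST hippocampus than in SST cortex numbered 36 (11.9% of all features). At that setting 2 were lower in Scnn cortex (26.3%) and 2 in VIP cortex (26.4%). Leaving out 1 library gave 53 to 63 higher and 0 to 1 lower members for Scnn cortex (all features: 14.9% to 19.3% and 8.91% to 10.2%). For CamK over Grik hippocampus it gave 29 to 33 and 2 to 5 (5.55% to 6.16% and 5.78% to 7.07%). For CamK over SST hippocampus it gave 45 to 49 and 5 to 7 (9.66% to 10.2% and 14.3% to 16.1%). For SST hippocampus over cortex it gave 1 to 4 and 20 to 25 (2.99% to 3.57% and 3.07% to 3.54%). For VIP cortex it gave 31 to 49 and 0 to 2 (19.6% to 24.4% and 4.8% to 6.99%). DESeq2 called 1 member lower in Scnn cortex (10.3% of all features). The cause of these changes was not tested. Of 194 alternative values for members named by the rule, 191 kept direction and call and 3 lost the call, all for GSMG0043298 in CamK over Grik hippocampus. These members had been named for large called differences without overlap between libraries. That most calls were kept follows in part from this choice and does not extend to the other called members.

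Deviations from the group mean were correlated between libraries of different groups. Same-numbered pairs had mean correlations of 0.0356 in plainly numbered titles (4 of 24 pairs over 0.1) and 0.00823 in W titles (0 of 16). Pairs with different numbers had -0.0118 (0 of 72) and -0.00165 (0 of 80). The 4 pairs over 0.1 all lay among PV, Scnn and SST cortex, the groups of the Scnn contrast, at 0.104 to 0.123. Of the 32 libraries 13 correlated best with their own number, and the number to be had by chance was not computed. The main fit did not take the numbers as pairs, and whether they mark pairs was not tested. With the replicate block 59 members were higher and 1 lower in Scnn cortex, 32 and 4 for CamK over Grik hippocampus and 49 and 5 for CamK over SST hippocampus, and GSMG0043298 had a log2 difference of -1.81 (edgeR adjusted p = 0.0783). For contrasts between W and plain titles no number is shared, so no block was fitted. Few members were close to 0 counts: 3 had at most 3 counts over the group in Grik hippocampus and 2 in SST hippocampus. Low counts reached further in the filter on the compared groups alone. It kept 88 of the 98 members for CamK over Grik hippocampus, 91 for CamK over SST hippocampus and 88 for SST hippocampus over cortex.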
